A study of Homo sapiens with 9 samples.

Results

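TNFAIP6 and the genes of the hyaluronan matrix formed a set of 10: TNFAIP6, HAS2, HAS3, CD44, VCAN, PTX3, HYAL1, HYAL2, HYAL3 and CEMIP. They were taken as the array rows whose single gene symbol, current or older, named one of them. Of the 10 genes, 9 had such a row, among 22411 genes with a single-symbol row in all, and HYAL1 had none, so its level was not analysed here. CD44 had a pair of rows and the other 8 genes had 1 each. The set was chosen by the rise of TNFAIP6 in the comparison of si-UQCRC2 with control, so the differences of all members in that comparison, and between the siRNA groups, which use the same si-UQCRC2 arrays, are given as descriptions without p-values.

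The arrays came from A549, an established human lung adenocarcinoma line, in DMEM at 72 h after siRNA transfection. The groups were si-FAM210B (FAM210B encodes a mitochondrial membrane protein), si-UQCRC2 (its target is a subunit of mitochondrial complex III) and si-negative control, with 3 arrays each and 9 in all. All groups, controls included, were thus transfected, and a single cell line limits the comparison. Replicates are labelled biological, with no word on whether each had its own culture, and the p-values cover the spread among these arrays, which may be technical.

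Hyaluronan is a long sugar polymer that the HAS enzymes extrude from the plasma membrane and that cells hold through the receptor CD44. TNFAIP6, also called TSG-6, is a secreted protein made in response to tumour necrosis factor and interleukin-1, which moves the heavy chains of inter-alpha-trypsin inhibitor onto hyaluronan. Versican, the product of VCAN, is a large proteoglycan that binds hyaluronan, PTX3 is a pentraxin that joins the TNFAIP6-modified matrix around the oocyte, and hyaluronidases and CEMIP take part in hyaluronan breakdown.

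The promoters of TNFAIP6 and VCAN are shown because both RNAs were higher in si-UQCRC2 cells than in the other groups, and that of PTX3 because it is another gene known to respond to tumour necrosis factor. Each line is the 250 bases before the gene's start in RefSeq, build GRCh38.p14, plus strand, from 5′ to 3′, with motif matches in capitals. The windows are chr2:151357342-151357591 for TNFAIP6, chr5:83471494-83471743 for VCAN and chr3:157436600-157436849 for PTX3.
TNFAIP6: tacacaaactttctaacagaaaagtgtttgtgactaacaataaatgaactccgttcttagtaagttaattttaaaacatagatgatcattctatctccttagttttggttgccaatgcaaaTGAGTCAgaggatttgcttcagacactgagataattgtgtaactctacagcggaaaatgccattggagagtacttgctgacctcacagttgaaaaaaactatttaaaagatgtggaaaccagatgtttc
VCAN: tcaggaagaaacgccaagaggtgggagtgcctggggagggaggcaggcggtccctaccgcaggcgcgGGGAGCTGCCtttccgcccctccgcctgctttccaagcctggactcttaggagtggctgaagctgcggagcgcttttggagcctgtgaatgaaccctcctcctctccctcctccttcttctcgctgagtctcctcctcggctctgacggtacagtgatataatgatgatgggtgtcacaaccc
PTX3: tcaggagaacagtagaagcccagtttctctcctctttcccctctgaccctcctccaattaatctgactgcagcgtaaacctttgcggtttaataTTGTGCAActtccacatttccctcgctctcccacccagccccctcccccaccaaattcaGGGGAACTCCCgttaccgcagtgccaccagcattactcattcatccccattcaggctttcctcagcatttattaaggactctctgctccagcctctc

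In all, 6 motifs were searched on both strands: TGANTCA for AP-1, GGGNNNNNCC for NF-kB, TGACGTCA for the cyclic AMP response element, ACGTG for the hypoxia response element, TTGCNNAA for C/EBP and TATAAA for a TATA box. The capitals in TNFAIP6 are the AP-1 match TGAGTCA, which begins 129 bases before the gene's start. A match to the AP-1 letters was found in 6.57% of the 35116 promoter windows in the table, and among the members in TNFAIP6 alone. The members searched were TNFAIP6, HAS3, CD44, VCAN, PTX3, HYAL1, HYAL2, HYAL3 and CEMIP, with HYAL1 searched for its sequence only and HAS2 not searched. The capitals in VCAN are a match to the NF-kB letters 183 bases before the start. PTX3 held 2 overlapping NF-kB matches, the first 97 bases before its start, and a C/EBP match at 156 bases. The NF-kB letters are so loose that 54.4% of all windows held them, against 9.05% for C/EBP. Matched letters describe the sequence only.

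On the deposited log2 scale, si-FAM210B replicate 1 and control replicate 3 stood apart from their groups, and their deviations correlated across the 15964 tested genes (r = 0.742). Differences without both arrays are given beside the results. Arrays of a group differed least in si-UQCRC2, with a median SD over tested genes of 0.0379, against 0.0878 in control and 0.130 in si-FAM210B. The targeted RNA UQCRC2 lay between 8.34 and 8.37 on the si-UQCRC2 arrays and between 9.70 and 9.96 on the controls. FAM210B lay at 6.48, 6.10 and 6.22 on si-FAM210B replicates 1 to 3 and between 6.39 and 6.48 on the controls, a difference of -0.17 ± 0.09 that did not pass (limma adjusted p = 0.239). The level of FAM210B thus does not check these labels, and si-FAM210B here means the arrays labelled so. Bulk RNA cannot tell a change in the number of cells that carry a transcript from a change in RNA per cell.

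TNFAIP6 was far higher in si-UQCRC2 cells than in either other group. It read 5.79, 5.84 and 5.52 on si-UQCRC2 replicates 1 to 3. On the controls it read 3.76, 3.90 and 3.82, and on the si-FAM210B arrays 3.39, 3.52 and 3.76. The lowest si-UQCRC2 array thus lay above every control and every si-FAM210B array, while the highest si-FAM210B array came within rounding of the lowest control. The group means were 5.72 ± 0.17 (SD, n = 3 here and below) in si-UQCRC2, 3.83 ± 0.07 in control and 3.56 ± 0.19 in si-FAM210B.

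The TNFAIP6 difference between si-UQCRC2 and control was 1.89 ± 0.11 on the log2 scale (SE from limma), a signal 3.71-fold higher. It was the largest log2 difference in that comparison over all tested genes. Between si-FAM210B and si-UQCRC2 the difference was -2.16 ± 0.11, or 4.47-fold higher in si-UQCRC2, and it was the lowest of all tested genes in that comparison. Between si-FAM210B and control it was -0.27 ± 0.11, with no test because the control level took part in the choice of the gene, and -0.19 without both deviating arrays. Leaving out single arrays gave differences of 1.83 to 1.99 between si-UQCRC2 and control, and leaving out both deviating arrays gave 1.89. TNFAIP6 passed the filter on low values, a mean over the 9 arrays of at least 4.25, only through the si-UQCRC2 arrays, since its other group means lay under it.

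**Figure D1:**
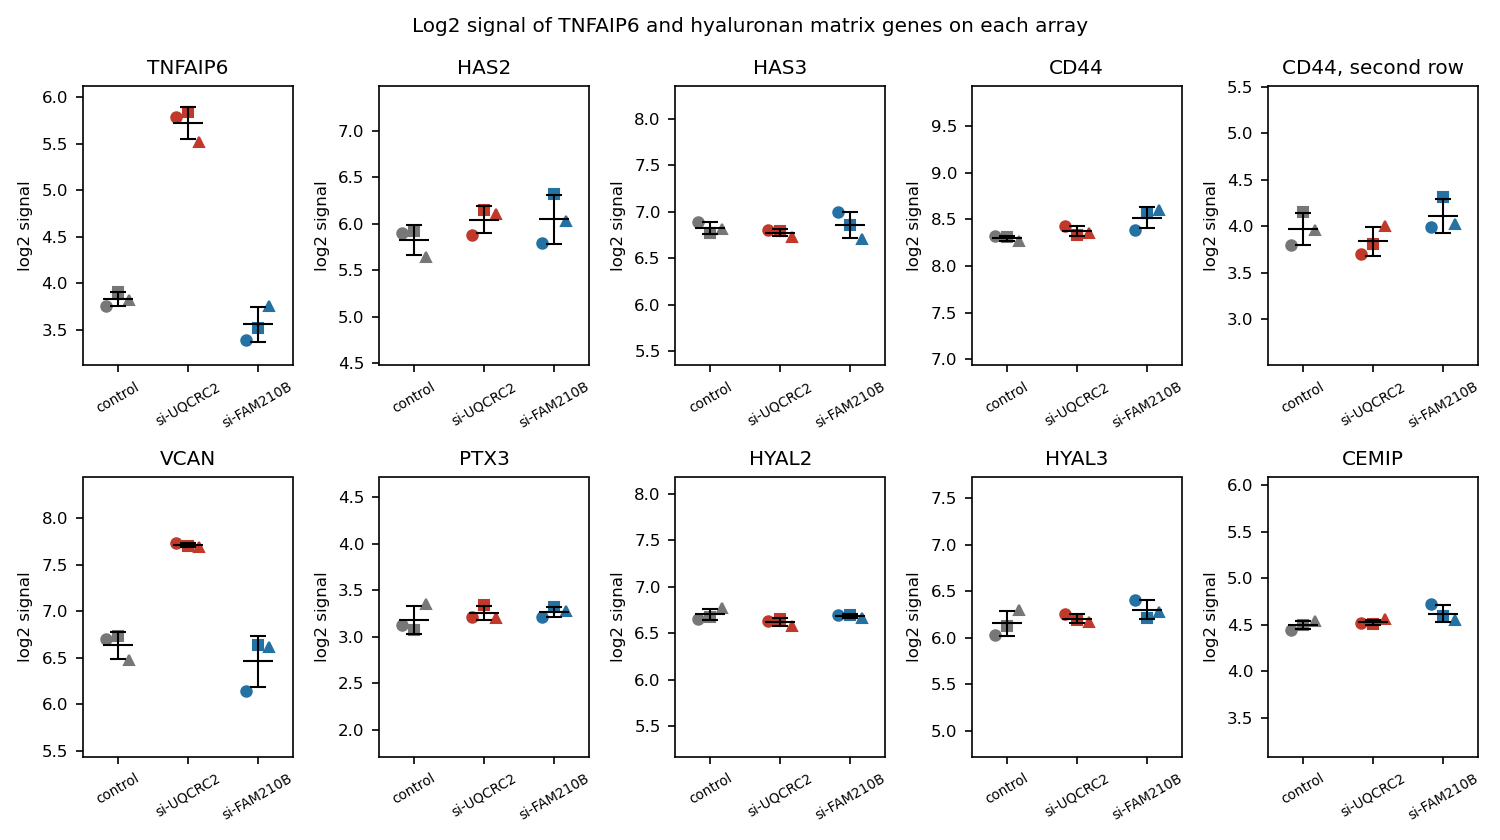
Log2 signal of the 9 members with a row, by array, with CD44 shown for both of its rows. The horizontal axis gives the group, circles, squares and triangles are replicates 1, 2 and 3, black bars are the group mean and SD, and every panel spans 3 log2 units. TNFAIP6 and VCAN on the si-UQCRC2 arrays lie above the other groups, and the other members lie close together in all groups.

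VCAN followed the same order of groups. It read 7.73, 7.70 and 7.69 on the si-UQCRC2 arrays, a spread smaller than in either other group. The controls read 6.70, 6.73 and 6.47, and the si-FAM210B arrays 6.14, 6.63 and 6.61. The si-UQCRC2 arrays did not overlap the others, while the control and si-FAM210B arrays overlapped, and the lowest array of each was the deviating one. The means were 7.71 ± 0.02 (SD), 6.63 ± 0.14 and 6.46 ± 0.28 in si-UQCRC2, control and si-FAM210B.

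The VCAN difference between si-UQCRC2 and control was 1.07 ± 0.12 on the log2 scale, 2.10-fold higher in si-UQCRC2. Ordered by this difference, VCAN stood at place 11 among all tested genes and at place 10 among the protein-coding ones. Without both deviating arrays the difference was 0.99. Between si-FAM210B and si-UQCRC2 VCAN differed by -1.25 ± 0.12, or 2.37-fold higher in si-UQCRC2 (-1.09 without both arrays). Between si-FAM210B and control the VCAN difference of -0.17 ± 0.12 did not pass (limma adjusted p = 0.365, 95% interval -0.45 to 0.10), and it was -0.09 without both arrays and -0.01 without si-FAM210B replicate 1.

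**Figure D2:**
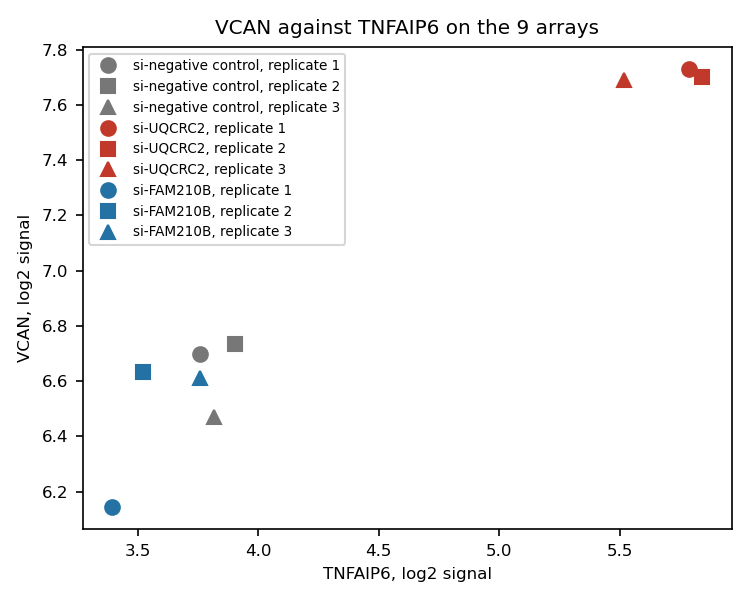
VCAN (vertical, log2 signal) against TNFAIP6 (horizontal, log2 signal) on the 9 arrays, coloured by group, with circles, squares and triangles for replicates 1, 2 and 3. The 3 si-UQCRC2 arrays sit apart at the upper right, with TNFAIP6 at 5.52 or more and VCAN at 7.69 or more, so the correlation over all 9 arrays rests on that group.

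The hyaluronan synthases, which make the polymer that TNFAIP6 and versican bind, showed no such rise. HAS2, the main synthase of many mesenchymal and matrix-forming cells, read 5.88, 6.14 and 6.11 in si-UQCRC2, 5.90, 5.92 and 5.64 in control, and 5.79, 6.32 and 6.03 in si-FAM210B. All 3 groups overlapped. HAS2 differed from control by 0.22 ± 0.13 in si-UQCRC2 and 0.23 ± 0.13 in si-FAM210B (for the latter limma adjusted p = 0.289, 95% interval -0.07 to 0.52). Control replicate 3 and si-FAM210B replicate 1, the deviating arrays, held the lowest HAS2 value of their groups, and without both the differences were 0.13 and 0.26. The si-FAM210B difference of HAS2 ran from 0.09 without si-FAM210B replicate 2 to 0.35 without si-FAM210B replicate 1, and was 0.13 without control replicate 3.

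HAS3, the other synthase with a row, read 6.80, 6.79 and 6.73 in si-UQCRC2, 6.89, 6.77 and 6.81 in control, and 6.99, 6.86 and 6.71 in si-FAM210B. These ranges overlapped too. Its difference from control was -0.05 ± 0.07 in si-UQCRC2 and 0.03 ± 0.07 in si-FAM210B (limma adjusted p = 0.814, 95% interval -0.14 to 0.19). Without both deviating arrays these differences were -0.06 and -0.05, so that the latter changed sign. Neither synthase was therefore shown to change under either siRNA, and the interval for HAS2 in si-FAM210B still holds a rise of 0.52.

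CD44, the hyaluronan receptor of the cell surface, had its highest values in si-FAM210B. The row with the higher mean read 8.39, 8.57 and 8.60 in si-FAM210B, 8.32, 8.31 and 8.27 in control, and 8.43, 8.34 and 8.36 in si-UQCRC2. Every array of either siRNA lay above every control, but the si-FAM210B and si-UQCRC2 arrays overlapped. The CD44 difference of si-FAM210B from control was 0.22 ± 0.07 (95% interval 0.07 to 0.37), which missed the threshold (limma adjusted p = 0.0783). An exact two-sided permutation test gave p = 0.1, the smallest possible with 3 against 3 arrays. The difference passed without si-FAM210B replicate 1 (0.29, limma adjusted p = 0.00909) and without both deviating arrays (0.27, limma adjusted p = 0.00613). In 14 of 17 alternative settings it did not pass. Among these were median centring (0.15, limma adjusted p = 0.340) and the mean of both CD44 rows (0.18, limma adjusted p = 0.178). A fit of these groups alone and the replicate block were others (limma adjusted p = 0.235 and 0.163). The difference of si-UQCRC2 from control was 0.08 ± 0.07, and 0.06 without both arrays. The second CD44 row, whose mean of 3.97 lay under the filter, lay between 3.70 and 4.32 on all arrays, with overlap between all groups. Which part of CD44 each row covers, and so which splice forms, is not given in the sources used here.

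PTX3, the pentraxin, stayed under the filter in every group and was not tested. It read 3.22, 3.34 and 3.20 in si-UQCRC2, 3.12, 3.07 and 3.35 in control, and 3.21, 3.32 and 3.28 in si-FAM210B. Its groups overlapped, and its mean differed from control by 0.07 in si-UQCRC2 and by 0.09 in si-FAM210B. No group of PTX3 arrays stood apart, at a signal under the filter.

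The genes of hyaluronan breakdown came next. HYAL2, a hyaluronidase anchored at the cell surface, read 6.63, 6.66 and 6.58 in si-UQCRC2, 6.66, 6.68 and 6.77 in control, and 6.70, 6.69 and 6.66 in si-FAM210B. Only the si-UQCRC2 and si-FAM210B arrays did not overlap, with means that differed by 0.06 ± 0.05. HYAL3, a family member beside HYAL1 and HYAL2 on chromosome 3, read 6.26, 6.19 and 6.17 in si-UQCRC2, 6.04, 6.12 and 6.30 in control, and 6.41, 6.21 and 6.28 in si-FAM210B, again with overlap. CEMIP, a hyaluronan-binding protein that hyaluronan depolymerisation depends on in skin fibroblasts, read 4.52, 4.51 and 4.56 in si-UQCRC2, 4.45, 4.50 and 4.54 in control, and 4.72, 4.59 and 4.55 in si-FAM210B.

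The si-FAM210B arrays of CEMIP all lay above the controls, by 0.13 ± 0.06 between the means, which did not pass (limma adjusted p = 0.212, 95% interval -0.01 to 0.26). HYAL3 differed from control by 0.15 ± 0.08 (limma adjusted p = 0.258) and HYAL2 by -0.02 ± 0.05 (limma adjusted p = 0.816) in si-FAM210B. In si-UQCRC2 the differences from control were 0.03 ± 0.06 for CEMIP, 0.05 ± 0.08 for HYAL3 and -0.08 ± 0.05 for HYAL2. Without both deviating arrays the si-FAM210B differences were 0.10 for CEMIP, 0.17 for HYAL3 and 0.01 for HYAL2, whose sign turned. Those of si-UQCRC2 were then 0.06 for CEMIP, 0.13 for HYAL3 and -0.05 for HYAL2. The highest HYAL3 and CEMIP values of si-FAM210B both came from the deviating replicate 1.

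Of the 8 members that passed the filter, 2, TNFAIP6 and VCAN, were among the genes that the adjusted p threshold of 0.05 takes in for si-UQCRC2 against control, beside 4.46% of all tested genes. Nothing is read from that count, since the comparison chose the set and TNFAIP6 passed the filter only through its high group. The same holds for si-FAM210B against si-UQCRC2, where the threshold took in the same 2 members and 9.78% of all genes. For si-FAM210B against control, leaving TNFAIP6 aside, no member was called in limma and 1, CD44, had an unadjusted p under 0.05, where 6.28% of all tested genes were called. Groups did not overlap for 3 of the 8 members in each comparison, against 29.2%, 24.0% and 41.7% of all tested genes for si-UQCRC2 against control, si-FAM210B against control and si-FAM210B against si-UQCRC2, which is a description only. In the same order, the median difference of the 8 members was 0.06, 0.08 and 0.07 on the log2 scale, and that of all tested genes -0.01, 0.03 and 0.05. The comparisons with control share the control arrays.

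**Figure D3:**
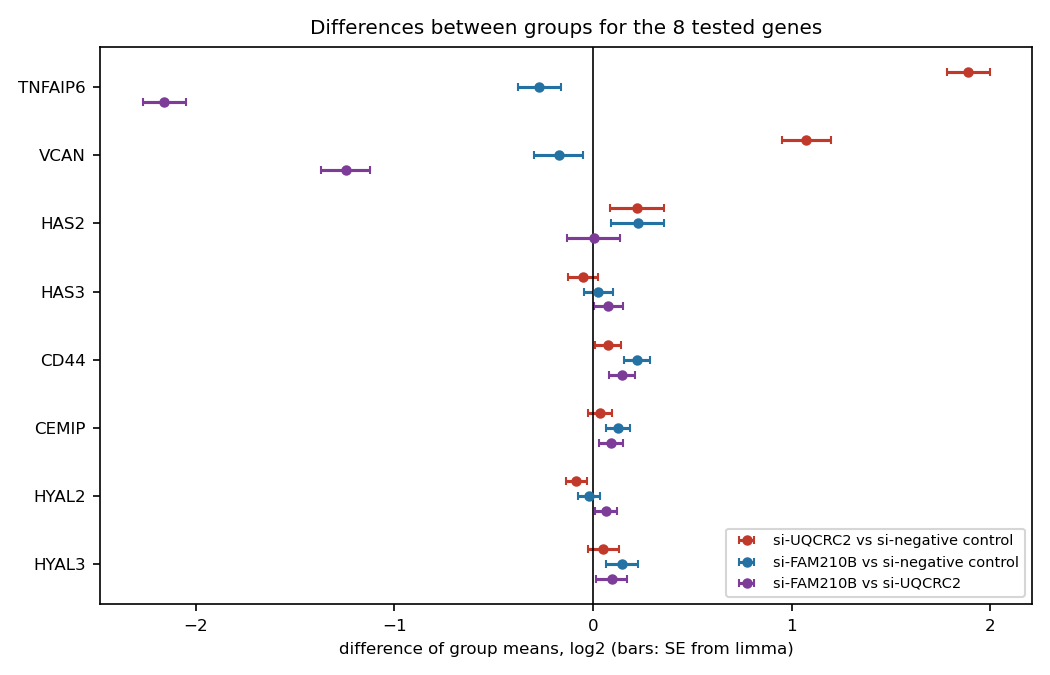
Differences of group means on the log2 scale for the 8 tested members, with SEs from limma as bars, for the 3 comparisons. TNFAIP6 at 1.89 and VCAN at 1.07 for si-UQCRC2 against control are the differences farthest above 0, and the other 6 members lie between -0.08 and 0.23 in every comparison.

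Beyond the members, HAPLN3 and FN1 were higher under both siRNAs. HAPLN3, a link protein that fixes proteoglycans on hyaluronan, read 7.39, 7.34 and 7.43 in si-UQCRC2, 6.61, 6.68 and 6.72 in control, and 7.07, 6.90 and 6.99 in si-FAM210B. The 3 groups of HAPLN3 arrays did not overlap. It rose by 0.71 ± 0.06 in si-UQCRC2 (limma adjusted p = 0.000275) and by 0.32 ± 0.06 in si-FAM210B (limma adjusted p = 0.0190), and si-FAM210B differed from si-UQCRC2 by -0.40 ± 0.06 (limma adjusted p = 0.00503). Of 6 tested proteoglycans and link proteins besides VCAN, HAPLN3 alone was called in each comparison. The rise in si-FAM210B did not pass without si-FAM210B replicate 3 or without control replicates 1 or 2 (highest limma adjusted p = 0.0927), nor in a fit of these groups alone (limma adjusted p = 0.107).

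FN1, fibronectin, rose by 0.76 ± 0.10 in si-UQCRC2 (limma adjusted p = 0.00190) and by 0.50 ± 0.10 in si-FAM210B (limma adjusted p = 0.0169). THBS1, thrombospondin-1, rose by 0.37 ± 0.07 in si-FAM210B (limma adjusted p = 0.0161) and differed by 0.27 in si-UQCRC2, where it was not called. They were the called members of 4 tested ligands that TNFAIP6 protein is known to bind. Both si-FAM210B calls were lost without si-FAM210B replicate 3 or without control replicates 1 or 2 (limma adjusted p up to 0.0732 for FN1 and 0.0678 for THBS1). They were also lost after median centring (0.107 and 0.130, limma adjusted p) and in a fit of these groups alone (0.0858 and 0.0915, limma adjusted p).

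TNFAIP6, HAS2, PTX3, VCAN and CD44 are all known from the hyaluronan matrix of the ovarian cumulus. The other tested genes of that programme all had higher means in si-UQCRC2 than in control, but did not share 1 direction in si-FAM210B. GREM1, a secreted BMP antagonist, rose by 1.08 ± 0.11 in si-UQCRC2 and by 1.70 ± 0.11 in si-FAM210B (limma adjusted p = 0.000489 and 2.67e-05), and was 0.62 ± 0.11 higher in si-FAM210B than in si-UQCRC2 (limma adjusted p = 0.00727), a call lost after median centring. PTGS2, the inducible prostaglandin synthase, read 6.78, 6.88 and 6.88 in si-UQCRC2, 6.48, 6.46 and 6.19 in control and 5.06, 5.64 and 5.72 in si-FAM210B. PTGS2 fell by 0.90 ± 0.15 in si-FAM210B (limma adjusted p = 0.00968), a call lost without control replicates 1 or 2 (limma adjusted p up to 0.0533) and in a fit of these groups alone (limma adjusted p = 0.0545), and si-FAM210B differed from si-UQCRC2 by -1.37 ± 0.15 (limma adjusted p = 0.000886). EGFR rose by 0.31 ± 0.07 in si-UQCRC2 (limma adjusted p = 0.0334), a call lost with any control or si-UQCRC2 array left out (limma adjusted p up to 0.166), and differed by -0.27 ± 0.07 between si-FAM210B and si-UQCRC2 (limma adjusted p = 0.0348). That call was lost without si-FAM210B replicate 3, control replicate 2 or any si-UQCRC2 array (limma adjusted p up to 0.147) and after median centring. Of the 5 tested genes in this list, 2 were called higher in si-UQCRC2, and 1 was called higher and 1 lower in si-FAM210B. Over all tested genes, 4.46% and 6.28% were called in either direction in these comparisons with control. This list and the other lists were chosen with earlier results of these data known, so nothing is read from their counts. In si-UQCRC2, PTGS2 lay 0.47 ± 0.15 above control (limma adjusted p = 0.146), EREG 0.26 and PTGER2 0.07, none of them called. PTGS2 alone lay below control in si-FAM210B.

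**Figure D4:**
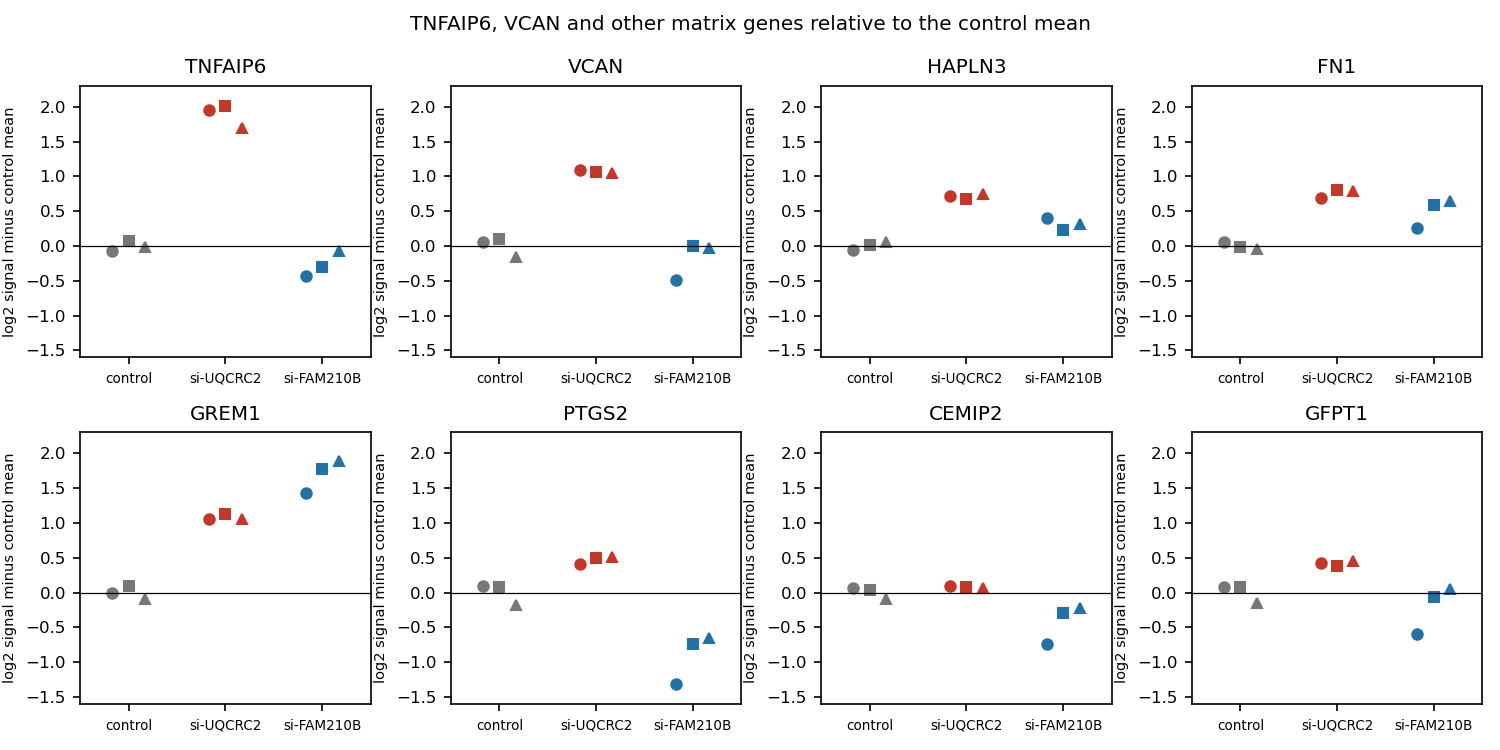
Log2 signal minus the mean of the 3 controls for TNFAIP6, VCAN and 6 related genes, by group, with circles, squares and triangles for replicates 1, 2 and 3. HAPLN3, FN1 and GREM1 lie above the controls in both siRNA groups, while TNFAIP6 and VCAN do so in si-UQCRC2 only. PTGS2 lies above the controls in si-UQCRC2 and below them in si-FAM210B.

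The enzymes that supply or remove the sugar held few called genes. GFPT1, the entry enzyme of hexosamine synthesis, and CEMIP2, a cell-surface hyaluronidase, were lower in si-FAM210B than in si-UQCRC2, with differences of -0.62 ± 0.14 and -0.50 ± 0.12 (limma adjusted p = 0.0262 and 0.0287). Neither was called against control, both calls were lost without any of the si-UQCRC2 arrays (limma adjusted p up to 0.103 and 0.104), and si-FAM210B replicate 1 held the lowest value of both. Without both deviating arrays the differences were -0.43 for GFPT1 and -0.34 for CEMIP2. They were the only genes called among 5 tested UDP-sugar genes and 3 tested genes of synthesis and breakdown.

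Among 6 tested receptors and CD44 partners, LAYN, the hyaluronan receptor layilin, rose by 0.26 ± 0.06 in si-FAM210B (limma adjusted p = 0.0369), and none was called in the other comparisons. Of 5 tested chains of inter-alpha-trypsin inhibitor, AMBP, the bikunin precursor, was 0.37 ± 0.07 higher in si-FAM210B than in control and 0.30 ± 0.07 higher than in si-UQCRC2 (limma adjusted p = 0.0118 and 0.0200). Of 5 tested versican proteases and CD44 sheddases, ADAMTS15 rose by 0.34 ± 0.07 in si-FAM210B (limma adjusted p = 0.0197), and ADAM10 differed by -0.33 ± 0.09 between si-FAM210B and si-UQCRC2 (limma adjusted p = 0.0452). In si-UQCRC2 against control none of these 3 lists, nor the UDP-sugar list, held a called gene. Without control replicates 1 or 2 the calls of LAYN, AMBP and ADAMTS15 against control were lost, with limma adjusted p up to 0.141 for LAYN, 0.0630 for AMBP and 0.0942 for ADAMTS15 over all single arrays left out. The LAYN call was also lost without si-FAM210B replicates 2 or 3, without any si-UQCRC2 array and after quantile normalization (limma adjusted p = 0.113). The ADAMTS15 call was also lost without si-FAM210B replicate 3. Without any of the si-UQCRC2 arrays the calls of AMBP and ADAM10 against si-UQCRC2 were lost (limma adjusted p up to 0.0952 and 0.149). That of ADAM10 was also lost without si-FAM210B replicates 1 or 3, without control replicates 1 or 2 and without a filter.

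None of 5 tested genes for inducers of TNFAIP6 and their receptors, RELA, NFKB1, TNF, IL1R1 and TNFRSF1A, was called in any comparison. Nor was any of TNFAIP1, TNFAIP2, TNFAIP3 and TNFAIP8, which are named for their induction by tumour necrosis factor. TNFAIP3 differed from control by 0.20 ± 0.06 in si-UQCRC2 (limma adjusted p = 0.134) and 0.23 ± 0.06 in si-FAM210B (limma adjusted p = 0.0633). The median difference of these 4 TNFAIP genes was 0.19 in si-UQCRC2 and 0.14 in si-FAM210B, against -0.01 and 0.03 over all tested genes. For each of them every si-UQCRC2 array lay above every control. Groups did not overlap, counted in either direction, for 29.2% of all tested genes, so the shares are not alike. The inducers IL1A and IL1B lay under the filter, and IL1A is given under the other observations.

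Over the 9 arrays, the genes whose levels were most like TNFAIP6 were PPME1 (Pearson r = 0.986), NEFL (0.985), VCAN (0.975), C1orf116 (0.975), LMO7 (0.970) and TSPYL2 (0.954). They were the top 6 of 46 tested protein-coding genes whose group means spanned at least 1 on the log2 scale. All had their highest mean in si-UQCRC2, for example 9.40 for PPME1 against 8.47 in control and 8.18 in si-FAM210B. The least like were UQCRC2 itself (r = -0.919), DIO2 (-0.792) and ITGA11 (-0.514). The arrays share their groups, so these values describe the order of 3 groups more than 9 independent points. Of the other members, HAS2 had r = 0.223 with TNFAIP6, HAS3 -0.450, CD44 -0.203, PTX3 0.119, HYAL2 -0.637, HYAL3 -0.163 and CEMIP -0.323.

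The label A549 was checked with markers. All 8 epithelial markers passed the filter, and KRT7, KRT8 and KRT18, keratins of simple epithelia, read between 10.9 and 11.7 on all arrays. KRT19 and CDH1 read between 6.53 and 7.72. EPCAM, SFTPB and SFTPC read only between 5.08 and 5.80, which overlaps the range of the leukocyte markers that passed. Passing the filter thus did not by itself separate epithelial markers from those of other cell types. Markers of other cell types were divided. Of 8 fibroblast markers 4 passed the filter (COL1A1, COL1A2, PDGFRB and THY1), as did 4 of 5 leukocyte markers (CD3E, CD14, ITGAM and CSF1R) and 2 of 4 endothelial ones (VWF and CDH5). Of 4 mesothelial markers 3 passed (WT1, UPK3B and CALB2). UPK3B read highest of these non-epithelial markers, between 7.15 and 7.61, within the range of KRT19 and CDH1. COL1A1 and THY1 read between 6.07 and 6.87, and the 4 leukocyte markers between 4.42 and 5.46. Below the filter lay PDGFRA, LUM, DCN, FAP, PTPRC, PECAM1, KDR and LRRN4. The markers PTPRC, PECAM1, DCN, LUM and FAP read between 2.41 and 3.02. The mean log2 signal over 8 fibroblast markers ran from 4.16 to 4.21 in si-UQCRC2 and 4.13 to 4.25 in control. It ran from 4.32 to 4.47 in si-FAM210B, where TNFAIP6 and VCAN were lowest. The mesothelial mean also lay apart, from 5.63 to 5.76 in si-FAM210B, against 5.41 to 5.57 in control and 5.47 to 5.53 in si-UQCRC2. The endothelial mean ran from 3.99 to 4.18 in si-FAM210B, 3.93 to 4.04 in control and 3.93 to 3.97 in si-UQCRC2. In the same order, the leukocyte mean ran from 4.49 to 4.67, 4.43 to 4.50 and 4.47 to 4.56. The si-FAM210B range thus overlapped control for the endothelial mean, and both other groups for the leukocyte mean. Fibroblast markers held THY1 higher in si-FAM210B than in control (0.56 ± 0.07, limma adjusted p = 0.00237), and, against si-UQCRC2, THY1 and COL1A1 higher by 0.30 and 0.40, calls lost without si-FAM210B replicate 3 or any si-UQCRC2 array, and for THY1 without control replicate 2 (limma adjusted p up to 0.128 and 0.0887). CALB2, of 3 tested mesothelial markers, was higher in si-FAM210B by 0.55 ± 0.06 against control and by 0.59 ± 0.06 against si-UQCRC2, and no endothelial or leukocyte marker was called.

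The mean over 8 epithelial markers ran from 8.16 to 8.21 in si-UQCRC2, 7.99 to 8.03 in control and 7.88 to 7.90 in si-FAM210B. Single markers did not all follow that order. KRT7, KRT19, SFTPB and SFTPC lay 0.09, 0.24, 0.15 and 0.13 higher in si-FAM210B than in control, none of them called. CDH1, with the largest fall in si-FAM210B, was not highest in si-UQCRC2 (7.54 against 7.67 in control). KRT19 (0.73 ± 0.07, limma adjusted p = 0.000305) and EPCAM (0.24 ± 0.06, limma adjusted p = 0.0442) rose in si-UQCRC2, the latter call lost without any control or si-UQCRC2 array (limma adjusted p up to 0.221). CDH1, E-cadherin, fell by 1.09 ± 0.06 in si-FAM210B. Against si-UQCRC2, CDH1, EPCAM, KRT19 and KRT8 were lower in si-FAM210B. The part of these markers in the TNFAIP6 and VCAN differences was not tested.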

How the data were processed

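RNA abundance was measured on Affymetrix whole-transcript arrays hybridised with biotin-labelled cDNA from 250 ng total RNA, per the labels. The deposited values are log2 signals that the authors made with RMA, per the submitters' processing notes, with version, software and annotation not given in the sources used here. RMA is meant to make array distributions alike and can compress weak signals. The median of the deposited values was still 4.40 on si-FAM210B replicate 1 and 4.29 on control replicate 3, against 4.20 to 4.28 on the other arrays. Arrays have no counting depth, so their number limits precision, and the table has no detection calls.

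Of 67528 rows, 23781 had 1 gene symbol in the platform annotation, updated through RefSeq records of GRCh38.p14. Each gene kept its row with the highest mean, and 15964 genes with a mean of at least 4.25, the median of all row means, were tested. Groups were compared with lmFit and eBayes in limma 3.58.1 (R 4.3.3) in 1 fit of all 9 arrays, with Benjamini-Hochberg adjustment over all tested genes, and the fit was tested on simulated data. A gene is called at an adjusted p under 0.05, and SEs are limma's.

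The members and 15 further gene lists were chosen with earlier results of these data known. Named were all members, called list genes (up to 4 a list and comparison), and the genes most and least like TNFAIP6. The level of HYAL1 was not analysed here. Same-numbered arrays of different groups had deviations that correlated from -0.584 to 0.512, so replicate numbers were not taken as pairs. The alternatives were other filters, scalings, row choices and fits, and leaving out arrays.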

Additional observations from a re-analysis of the deposited data

Results flagged for a closer look

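The differences of the siRNA groups from the same controls lay far apart for 2 members, which is given as a description because the si-UQCRC2 arrays chose the set. For TNFAIP6 the si-FAM210B effect minus the si-UQCRC2 effect was -2.16 on the log2 scale, from -0.27 and 1.89. For VCAN it was -1.25, from -0.17 and 1.07. Since the controls are shared, these values are the differences between the siRNA groups already given above, not further results. Groups of 3 arrays are too small for a test of single deviating values.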

How the results depend on the processing

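Since TNFAIP6 and the set were chosen by the si-UQCRC2 arrays, their calls there say nothing of stability. As descriptions, the difference from control ran from 1.83 to 1.99 for TNFAIP6 and from 0.99 to 1.12 for VCAN over the alternatives. A stricter filter left TNFAIP6 out, so that the threshold took in 1 member instead of 2 in both comparisons with si-UQCRC2. For si-FAM210B against control 1 member, CD44, was called after quantile normalization (0.29, limma adjusted p = 0.00959) and without both deviating arrays (0.27), and 0 to 1 members were called when single arrays were left out. Against si-UQCRC2 CD44 was also called after quantile normalization (0.20), without both arrays (0.21) and without si-FAM210B replicate 1 (0.21). In either comparison it was not called in 14 of 17 alternatives. The number of genes called for si-UQCRC2 against control was 712, and 1449 in a fit of these groups alone, 342 with the replicate block, 2736 without both deviating arrays and 249 to 1654 with single arrays left out. For si-FAM210B against control it was 1002, and 559 after median centring, 227 in a fit of these groups alone, 409 with the replicate block, 3889 without both arrays and 306 to 1975 with single arrays left out. For si-FAM210B against si-UQCRC2 it was 1561, and 1040, 798, 3835 and 505 to 3280 in the order group fit, block, both arrays out and single arrays out. The cause of these shifts was not tested. The replicate block changed no call of a member, but it ended the si-FAM210B calls against control of HAPLN3 (limma adjusted p = 0.0579), THBS1 (0.0523), AMBP (0.0502) and LAYN (0.0960), those against si-UQCRC2 of GFPT1 (0.0529), CEMIP2 (0.0586), AMBP (0.0642), ADAM10 (0.0903), EGFR (0.0807) and THY1 (0.0807), and the si-UQCRC2 calls of EGFR (0.0919) and EPCAM (0.126). Calls of list genes also ended in a fit of the groups compared alone for LAYN (limma adjusted p = 0.142), AMBP (0.0847) and ADAMTS15 (0.107) against control and for GFPT1 (0.0552), CEMIP2 (0.0624), ADAM10 (0.0642), EGFR (0.0626) and THY1 (0.0618) against si-UQCRC2. Median centring ended those of LAYN (0.196) and ADAMTS15 (0.0521) against control, of GFPT1 (0.0540), CEMIP2 (0.0588), AMBP (0.0716) and ADAM10 (0.0807) against si-UQCRC2, and of EGFR (0.126) and EPCAM (0.0800) for si-UQCRC2 against control. Signal near the filter limits PTX3, TNFAIP6 outside si-UQCRC2 and the second CD44 row.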

Other observations

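CXCL8, a chemokine that TNFAIP6 protein is known to bind, and IL1A, an inducer of TNFAIP6, lay under the filter with means of 4.21 and 2.81, and are named after their values were seen. CXCL8 read 4.60, 4.60 and 4.68 in si-UQCRC2, 3.88, 3.86 and 3.94 in control, and 4.20, 4.06 and 4.10 in si-FAM210B. Its groups did not overlap, and in the fit without a filter it was 0.73 ± 0.06 (SE) higher in si-UQCRC2 than in control (limma adjusted p = 0.000198). IL1A read 2.91, 3.05 and 3.12 in si-UQCRC2, 2.68, 2.59 and 2.62 in control, and 2.79, 2.77 and 2.72 in si-FAM210B. It was 0.39 ± 0.06 higher in si-UQCRC2 than in control in that fit (limma adjusted p = 0.00930), at a signal where the array may resolve little. They were the only ones called against control of 25 list genes with a row under the filter.

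Rows beside the members were also read after the members. A VCAN-AS1 row, for an RNA antisense to VCAN, read 2.95, 3.28 and 3.14 in si-UQCRC2, 2.53, 2.93 and 2.44 in control, and 2.49, 2.54 and 2.74 in si-FAM210B. The other VCAN-AS1 row lay between 2.44 and 2.73 on all arrays. HAS2-AS1 lay between 4.85 and 5.17 and CD44-DT between 3.27 and 3.65 on all arrays.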
